A study of Mus musculus with 9 samples.

Results

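The 37 genes described here encode proteins of skeletal muscle: the contractile filaments, their regulators, the calcium release machinery and the enzymes of muscle energy supply. They were taken from a list of mouse symbols, and all 37 were found among the 47069 gene rows of the deposited count files. Of these, 14 mark fast fibres, 7 mark slow fibres and 16 are shared by both fibre types. Bulk RNA had been sequenced in 9 libraries: 3 of distal metastases, 3 of proximal metastases (epididymal fat) and 3 of primary prostate tumours. The distal metastases are given as diaphragm in the tissue label and as lung in the growth protocol. Every library came from C57BL/6 mice of about 9 to 10 months with the genotype Ctnnb1pc(ex3)delta/+ Ptenpc+/-, so the primary tumours carry the same engineered alleles as the metastases and no tumour-free tissue was among the libraries. The labels name no Cre driver. They state that the tissues were matched in 3 mice without tying a library to a mouse, and the library numbers serve as names and carry no pairing.

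In skeletal muscle, myosin heavy and light chains of the thick filament pull on actin of the thin filament, and the troponin complex switches this sliding on when calcium is released from the sarcoplasmic reticulum. Slow fibres and the several kinds of fast fibre use different genes for the same part: Myh7 encodes the slow myosin heavy chain, Myh2 the IIA, Myh1 the IIX and Myh4 the IIB form. The mouse diaphragm is known as a mixed muscle in which IIA and IIX fibres prevail and slow fibres are a minority.

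Skeletal muscle transcripts were abundant in distal 2 and distal 3 and scarce in the other 7 libraries. Summed over the 37 genes, the level was 239.9, 1614.8 and 1911.6 CPM (counts scaled to a common library size with trimmed-mean factors) in distal 1, 2 and 3, between 289.2 and 341.5 CPM in the proximal metastases and between 58.4 and 269.9 CPM in the primary tumours. In the libraries other than distal 2 and 3, most of this level belonged to Mybpc1 and Eno3, except in primary 2, where Mybpc1 stood at 13.5 and Eno3 at 14.4 CPM. Without these genes, the sum over the other 35 was 20.1, 1331.9 and 1674.9 CPM in distal 1, 2 and 3, against 17.0, 17.0 and 19.6 CPM in proximal 1, 2 and 3 and 29.9, 30.5 and 33.9 CPM in primary 1, 2 and 3. Distal 1 thus lay between the proximal and the primary libraries. The 37 genes held 0.168% of all counts in distal 2 (95% Wilson interval 0.167% to 0.169%) and 0.197% in distal 3 (0.196% to 0.199%), against 0.0244% in distal 1 (0.0239% to 0.0249%). In these bulk samples, fewer muscle cells and less RNA per cell cannot be told apart.

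Distal 2 and distal 3 were the 2 highest of the 9 libraries for 33 of the 37 genes: 14 of 14 fast, 4 of 7 slow and 15 of 16 shared genes. The exceptions were Mybpc1, Tnni1, Tnnc1 and Eno3. Among the 24 members with enough counts to be tested, these libraries were the 2 highest for 20, whereas the same held for 421 of the 18204 genes tested (2.31%). Members such as Tnnt3 passed the filter only through their distal counts, and the members were chosen with earlier results of these data known. This contrast is therefore a description. Distal 1 did not exceed the highest primary or proximal library for 33 of the 37 genes. Its exceptions were Acta1, Tnnt3, Hfe2 and Myh7. Total counts per library ranged from 28334730 to 40408723, and 3 counts, the floor used for a gene without counts, came to 0.0714 to 0.117 CPM. Intervals and floors cover counting error only.

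**Figure D1:**
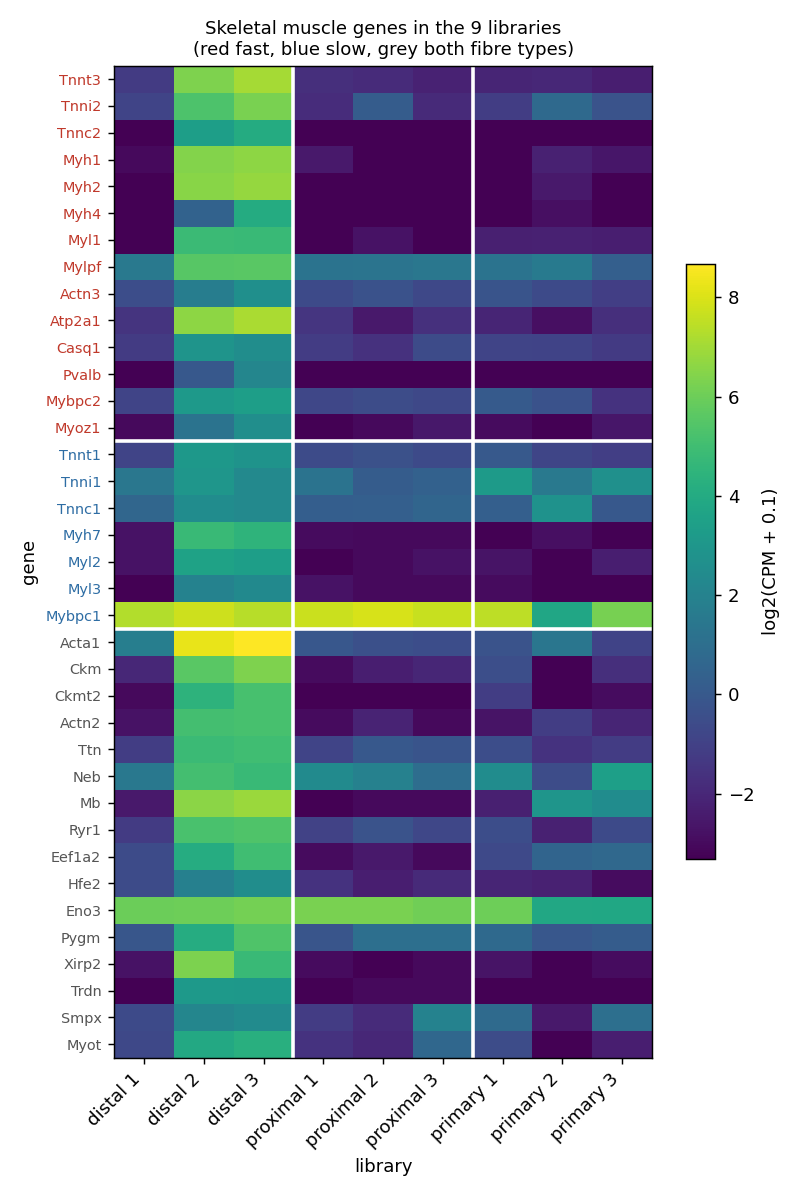
Levels of the 37 genes (rows, fast, slow and shared) in the 9 libraries (columns, distal, proximal, primary) as log2(CPM + 0.1), with brighter colours for higher levels. Distal 2 and distal 3 are bright in nearly every row, while Mybpc1 and Eno3 are bright in most columns.

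Promoter sequences are shown for a few genes whose 2 highest libraries were distal 2 and 3 and for Mybpc1, which did not follow them. Among them Myh4 was far lower in distal 2 (1.26 CPM) than in distal 3 (16.4 CPM). RefSeq (GRCm38.p6) gave a window of 250 bases before to 50 bases after the transcription start for 29 of the 37 genes, in 35 windows. These were searched on both strands for the E-box CAGCTG, read by myogenic basic helix-loop-helix factors, for the MCAT element CATTCC, read by TEAD factors, and for the MEF2 and CArG elements, read by MEF2 proteins and serum response factor. Capitals mark the matches, which did not overlap each other in the windows printed, written 5′ to 3′ along the gene.
Acta1, chr8:123894726-123895025, minus strand: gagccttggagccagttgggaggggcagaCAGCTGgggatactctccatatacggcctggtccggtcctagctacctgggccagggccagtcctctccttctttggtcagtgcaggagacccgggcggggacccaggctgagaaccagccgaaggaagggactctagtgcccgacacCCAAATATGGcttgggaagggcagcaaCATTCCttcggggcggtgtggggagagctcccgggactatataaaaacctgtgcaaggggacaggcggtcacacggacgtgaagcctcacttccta
Myh1, chr11:67199852-67200151, plus strand: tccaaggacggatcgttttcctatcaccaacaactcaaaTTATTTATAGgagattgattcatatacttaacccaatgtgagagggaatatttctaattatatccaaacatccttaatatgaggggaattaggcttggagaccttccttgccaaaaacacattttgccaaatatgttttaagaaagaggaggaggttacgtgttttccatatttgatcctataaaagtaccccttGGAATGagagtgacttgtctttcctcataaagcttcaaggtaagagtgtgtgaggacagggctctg
Myh4, chr11:67237562-67237861, plus strand: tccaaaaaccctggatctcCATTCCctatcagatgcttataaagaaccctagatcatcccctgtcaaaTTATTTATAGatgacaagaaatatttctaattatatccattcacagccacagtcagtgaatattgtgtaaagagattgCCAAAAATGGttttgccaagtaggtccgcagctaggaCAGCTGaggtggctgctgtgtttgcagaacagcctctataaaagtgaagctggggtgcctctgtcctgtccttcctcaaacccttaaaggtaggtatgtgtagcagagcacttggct
Myl3, chr9:110763428-110763727, plus strand: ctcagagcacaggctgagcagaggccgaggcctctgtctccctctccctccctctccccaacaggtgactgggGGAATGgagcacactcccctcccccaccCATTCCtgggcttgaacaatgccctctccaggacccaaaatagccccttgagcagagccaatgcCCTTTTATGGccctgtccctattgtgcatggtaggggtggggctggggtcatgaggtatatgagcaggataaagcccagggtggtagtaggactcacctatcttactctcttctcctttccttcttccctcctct
Mybpc1, chr10:88605103-88605402, minus strand: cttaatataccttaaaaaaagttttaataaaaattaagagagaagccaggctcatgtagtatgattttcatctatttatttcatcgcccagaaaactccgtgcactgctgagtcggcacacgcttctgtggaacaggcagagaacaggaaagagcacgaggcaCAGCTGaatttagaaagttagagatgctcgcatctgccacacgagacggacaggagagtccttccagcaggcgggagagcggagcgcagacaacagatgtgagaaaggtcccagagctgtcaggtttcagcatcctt
The window of Acta1, skeletal muscle actin, held an E-box, a CArG element and an MCAT element, and that of Mybpc1 held an E-box alone. The window of Ckm, not printed here, also held an E-box alone, and the 2 highest libraries of Ckm were distal 2 and 3. The neighbouring Myh1 and Myh4 genes shared the same 10 letters as their MEF2 match, and Myh4 also held the 3 other elements. The E-box was found in 18 of the 35 windows (15 of 29 genes), against 16.3% of all 32851 windows. MCAT was found in 10 of 35 against 14.7%, MEF2 in 5 of 35 against 3.19% and CArG in 3 of 35 against 1.63%. A match is a run of letters and not a shown binding site.

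Fast fibre genes were nearly absent outside distal 2 and 3. Their sum over 14 genes was 5.29, 514.4 and 703.9 CPM in distal 1, 2 and 3, against 4.36 to 5.25 CPM in the proximal metastases and 3.36 to 6.75 CPM in the primary tumours. Tnnt3, the fast troponin T that anchors the complex to tropomyosin (ENSMUSG00000061723, GRCm38 chromosome 7, 142498836 to 142516009), stood at 0.325, 81.3 and 135 CPM in distal 1, 2 and 3. It reached 0.209, 0.178 and 0.122 CPM in proximal 1, 2 and 3 and 0.134, 0.156 and 0.102 CPM in primary 1, 2 and 3, so the distal libraries did not overlap with either group, with distal 1 only just above. Prr33 overlaps Tnnt3 on the other strand, and without a stated strand setting their reads cannot be told apart. Tnni2, the inhibitory subunit of fast troponin (ENSMUSG00000031097, chromosome 7, 142441808 to 142444410), was at 0.45, 40.5 and 76.6 CPM in distal 1, 2 and 3. Its values were 0.183, 1.02 and 0.171 CPM in proximal 1, 2 and 3 and 0.349, 1.64 and 0.746 CPM in primary 1, 2 and 3. Here distal 1 lay inside the range of both other groups. Tnnc2, the calcium-binding subunit, had 446 counts in distal 2 and 499 in distal 3 and none in the other 7 libraries.

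Among the fast myosin genes, Mylpf, the phosphorylatable regulatory light chain (ENSMUSG00000030672, chromosome 7, 127208890 to 127214298), was at 2.82, 47.2 and 48.6 CPM in distal 1, 2 and 3. It was also measurable elsewhere, at 2.24, 2.37 and 2.64 CPM in proximal 1, 2 and 3 and 2.31, 2.89 and 1.15 CPM in primary 1, 2 and 3. Distal 1 lay just above the proximal libraries and below primary 2. The alkali light chain gene Myl1 stood at 28.8 and 28.0 CPM in distal 2 and 3 and had at most 0.117 CPM in any other library. Mybpc2, the fast myosin-binding protein C (ENSMUSG00000038670, chromosome 7, 44501699 to 44524656, overlapping Gm44646 on the other strand), was at 0.45, 8.59 and 10.5 CPM in distal 1, 2 and 3. The corresponding values were 0.496, 0.586 and 0.513 CPM in proximal 1, 2 and 3 and 0.965, 0.702 and 0.237 CPM in primary 1, 2 and 3. Distal 1 again fell inside the range of the primary tumours.

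Fast genes of the calcium cycle and the Z-disc were also highest in distal 2 and 3. Atp2a1, the calcium pump SERCA1, stood at 0.25, 100 and 141 CPM in distal 1, 2 and 3 and had at most 0.261 CPM in the other 2 groups. Casq1, the calcium store protein calsequestrin, was at 0.325, 7.23 and 5.86 CPM in distal 1, 2 and 3, with at most 0.562 CPM in the others. Actn3, the fast fibre alpha-actinin, was at 0.624, 3.33 and 6.16 CPM in distal 1, 2 and 3 and at most 0.778 CPM in the others. Myoz1, a calcineurin-binding Z-disc protein, had 96 counts in distal 2, 177 in distal 3 and at most 3 in any other library. The calcium buffer parvalbumin (Pvalb) had 37 counts in distal 2 and 132 in distal 3 and none elsewhere.

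Slow fibre genes split into those near 0 outside distal 2 and 3 and those present in tumours of every site. Without Mybpc1, the sum over 6 genes was 4.57, 65.6 and 54.8 CPM in distal 1, 2 and 3, against 2.93 to 3.99 CPM in the proximal and 7.66 to 11.2 CPM in the primary libraries. Myh7 was at 0.0499, 28.2 and 22.4 CPM in distal 1, 2 and 3 and reached at most 0.0261 CPM in the proximal and 0.039 CPM in the primary libraries. The slow light chain genes Myl2 and Myl3 were at 12 and 10.6 CPM (Myl2) and 3.95 and 5.03 CPM (Myl3) in distal 2 and 3, with at most 0.102 CPM in any other library. Tnnt1, slow troponin T (ENSMUSG00000064179, chromosome 7, 4504570 to 4516382), was at 0.45, 8.18 and 6.96 CPM in distal 1, 2 and 3. It was at 0.574, 0.688 and 0.538 CPM in proximal 1, 2 and 3 and 0.912, 0.468 and 0.373 CPM in primary 1, 2 and 3, so distal 1 lay below all 3 proximal libraries.

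Tnni1, slow troponin I (ENSMUSG00000026418, chromosome 1, 135779434 to 135810989), had its highest value in a primary tumour. It stood at 2.57, 7.68 and 4.96 CPM in distal 1, 2 and 3, 2.24, 1.02 and 1.22 CPM in proximal 1, 2 and 3 and 9.09, 2.81 and 6.31 CPM in primary 1, 2 and 3. Tnnc1, the troponin C of slow and cardiac muscle (ENSMUSG00000091898, chromosome 14, 31208312 to 31211729, overlapping Nisch on the other strand), was at 1.45, 5.54 and 4.83 CPM in distal 1, 2 and 3, at 1.10, 1.15 and 1.42 CPM in proximal 1, 2 and 3 and at 1.15, 6.75 and 0.882 CPM in primary 1, 2 and 3. Primary 2 was its highest library, and for both genes the distal and primary libraries overlapped. Mybpc1, the slow myosin-binding protein C (ENSMUSG00000020061, chromosome 10, 88518279 to 88605152, overlapping Gm48752 on the other strand), whose human counterpart is also known from prostate tissue, did not follow the other muscle genes. It stood at 157.9, 216.9 and 164.4 CPM in distal 1, 2 and 3, at 206.8, 249 and 202.7 CPM in proximal 1, 2 and 3 and at 175.6, 13.5 and 74.5 CPM in primary 1, 2 and 3. Primary 2 and 3 lay below all 6 metastases, and primary 1 lay among the distal values.

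**Figure D2:**
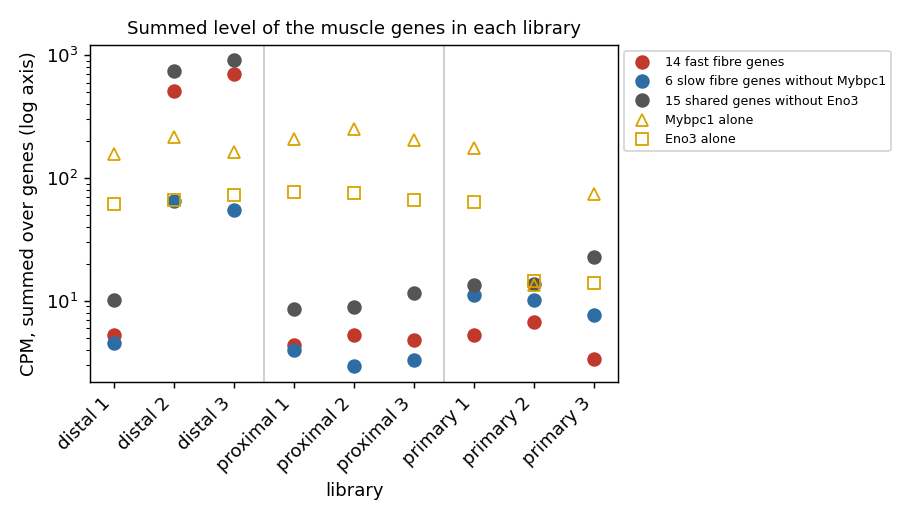
Summed CPM per library (log axis) of the 14 fast genes, the 6 slow genes without Mybpc1 and the 15 shared genes without Eno3, with Mybpc1 and Eno3 drawn alone. The fast sum reaches 514.4 and 703.9 CPM in distal 2 and 3 and at most 6.75 CPM elsewhere, whereas Mybpc1 and Eno3 show no such step.

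Genes shared by both fibre types gave the highest levels. The sum over 15 genes without Eno3 was 10.2, 751.8 and 916.3 CPM in distal 1, 2 and 3, against 8.66 to 11.5 CPM in the proximal and 13.4 to 22.9 CPM in the primary libraries. Acta1 (ENSMUSG00000031972, chromosome 8, 123891769 to 123894751, overlapping Gm20388 on the opposite strand) stood at 3.42, 306.4 and 407.5 CPM in distal 1, 2 and 3. It was at 0.861, 0.663 and 0.611 CPM in proximal 1, 2 and 3 and 0.751, 2.5 and 0.441 CPM in primary 1, 2 and 3, and the distal libraries overlapped with neither group. Per kb of exon, Acta1 was the highest member in distal 2 and 3, at 199.5 and 265.3 CPM per kb. Mb, the oxygen carrier myoglobin (ENSMUSG00000018893, chromosome 15, 77015487 to 77050670, overlapping Apol6 and Gm49540 on the other strand), was at 0.0749, 96.7 and 115 CPM in distal 1, 2 and 3. It was at 0, 0.0255 and 0.0244 CPM in proximal 1, 2 and 3 and at 0.107, 7.45 and 5.56 CPM in primary 1, 2 and 3. Distal 1 fell below every primary library here.

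Energy enzymes followed. Ckm, muscle creatine kinase (ENSMUSG00000030399, chromosome 7, 19404776 to 19422841, overlapping A930016O22Rik on the other strand), was at 0.15, 49.1 and 81.8 CPM in distal 1, 2 and 3. It was at 0.0261, 0.102 and 0.147 CPM in proximal 1, 2 and 3 and at 0.644, 0 and 0.203 CPM in primary 1, 2 and 3. Distal 1 and proximal 3 had 6 counts each, and distal 1 fell inside the primary range. Its mitochondrial partner Ckmt2 had 21.2 and 36.2 CPM in distal 2 and 3 and at most 0.349 CPM elsewhere. Pygm, muscle glycogen phosphorylase, was at 0.824, 17.2 and 41.1 CPM in distal 1, 2 and 3 and at most 1.99 CPM in the others. Eno3, the muscle enolase of glycolysis (ENSMUSG00000060600, chromosome 11, 70657202 to 70662513), differed from these enzymes. It stood at 62.0, 66.0 and 72.3 CPM in distal 1, 2 and 3, at 76.4, 75.5 and 66.9 CPM in proximal 1, 2 and 3 and at 64.4, 14.4 and 13.9 CPM in primary 1, 2 and 3. Primary 1 lay within the range of the distal metastases and below the proximal ones, and primary 2 and 3 lay below all 6 metastases.

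The structural genes of the sarcomere and the triad showed the step between libraries as well. Titin (Ttn), the molecular spring, was at 0.35, 28.5 and 31.7 CPM in distal 1, 2 and 3 and at most 0.892 CPM in the other groups. Nebulin (Neb), which spans the thin filament, was at 2.72, 33.6 and 28.3 CPM in distal 1, 2 and 3 but also reached 5.22 CPM in proximal 1 and 10.9 CPM in primary 3. Ryr1, the calcium release channel, was at 37.5 and 40.7 CPM in distal 2 and 3 and at most 0.739 CPM elsewhere. Trdn, triadin, which ties the channel to calsequestrin, had 359 and 250 counts in distal 2 and 3 and at most 1 count in any other library. Actn2 at the Z-disc stood at 33.6 and 36.6 CPM in distal 2 and 3 and at most 0.351 CPM elsewhere. Xirp2, an actin-binding Xin repeat protein, was at 79.2 CPM in distal 2 and 27.9 CPM in distal 3, with at most 0.0536 CPM in the others.

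A few shared genes had counts at other sites. Myot, the Z-disc protein myotilin, was at 0.499, 15 and 18.8 CPM in distal 1, 2 and 3, and proximal 3 stood out among the rest with 1.52 CPM. Smpx, a small striated muscle protein, was at 0.549, 4.50 and 5.39 CPM in distal 1, 2 and 3, with 3.89 CPM in proximal 3 and 2 CPM in primary 3. Eef1a2, the translation elongation factor form of muscle and neurons, was at 0.574, 17.2 and 31.3 CPM in distal 1, 2 and 3, at 0.0244 to 0.0765 CPM in the proximal and at 0.536 to 1.56 CPM in the primary libraries. Hfe2, hemojuvelin, a coreceptor of muscle and liver for bone morphogenetic proteins, was at 0.574, 3.66 and 5.76 CPM in distal 1, 2 and 3, against 0.102 to 0.235 CPM in the proximal and 0.0339 to 0.134 CPM in the primary libraries.

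The adult myosin heavy chain genes describe the myosin forms present in distal 2 and 3. Of the CPM per kb over the 4 genes, Myh2 held 43.1% in distal 2 and 41.8% in distal 3, and Myh1 held 45.5% and 43.5%. Myh7 held 10.7% in distal 2 and 7.16% in distal 3. Myh4 held 0.685% in distal 2 and 7.51% in distal 3, from 53 and 493 counts. IIA and IIX transcripts thus prevailed in both libraries, and IIB transcripts were the part that differed most between them. Myh1, Myh2 and Myh4 are near-identical neighbours on chromosome 11, between 67171027 and 67260446, so how their reads were divided among them is uncertain. The shares also depend on the annotated exon bases, 8616 for Myh7 and 6353 for Myh1.

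**Figure D3:**
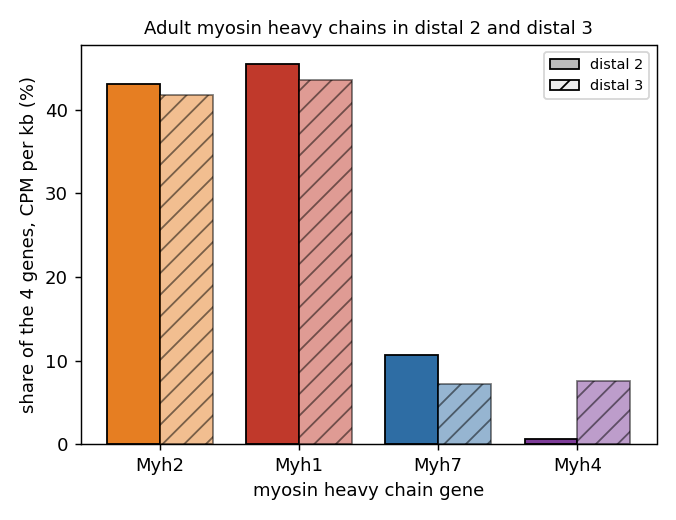
Share of each adult myosin heavy chain gene in the CPM per kb over the 4 genes (y axis, %), in distal 2 (plain) and distal 3 (hatched). Myh2 and Myh1 hold over 40% each in both libraries, and Myh4 holds 0.685% and 7.51%.

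Within troponin, the fast form exceeded the slow form in these libraries on the CPM per kb scale. This scale divides by all annotated exon bases of a gene, 3600 for Tnni1 and 1497 for Tnni2, which raises their ratio above that of plain CPM. In plain CPM, distal 2 had 40.5 for Tnni2 and 7.68 for Tnni1, and distal 3 had 76.6 and 4.96. All ratios that follow are per kb. The ratio of Tnnt3 to Tnnt1 was 13.8 in distal 2 and 27.0 in distal 3, against 1.01 in distal 1, 0.316 to 0.506 in the proximal and 0.205 to 0.464 in the primary libraries. The ratio of Tnni2 to Tnni1 was 12.7 in distal 2 and 37.1 in distal 3 and at most 2.40 in the other 7 libraries. Tnnc2 over Tnnc1 was 2.49 in distal 2 and 4.48 in distal 3. Among the light chains, Mylpf over Myl2 was 7.20 and 8.42 and Myl1 over Myl3 was 7.18 and 5.49 in distal 2 and 3. Mylpf over Myl2 did not set the libraries apart in the way of troponin. Where Myl2 had counts elsewhere, at most 3 a library, that ratio was 20.8 to 170.8. Myl1 over Myl3 was lower elsewhere, at 0 to 3.94 in the 4 other libraries with Myl3 counts. Those libraries held at most 2 counts of Myl3 and 4 of Myl1 each. For myosin-binding protein C the slow gene was the higher one. Mybpc2 over Mybpc1 was 0.0496 and 0.0798 in distal 2 and 3, and the 0.0652 of primary 2 lay between them. Mybpc1 was also at 157.9 CPM in distal 1 and at 202.7 to 249 CPM in the proximal libraries, so this ratio cannot be read as a fibre form.

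The ratio between distal 3 and distal 2 ran higher for fast than for slow genes. The median ratio of distal 3 to distal 2 was 1.49 over the fast genes, 0.85 over the slow genes and 1.19 over the shared genes. Of the fast genes 12 of 14 were higher in distal 3, of the slow genes 1 of 7 and of the shared genes 13 of 16. Myh4 had the highest ratio, 13.0 (95% counting interval 9.79 to 17.6), followed by Pvalb with 4.99 (3.45 to 7.4). The lowest was Xirp2 with 0.352 (0.326 to 0.380). Intervals lay above 1 for 24 genes and below 1 for 6, and they included 1 for 7. These ratios compare 2 libraries of the same group and have no replicate check.

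**Figure D4:**
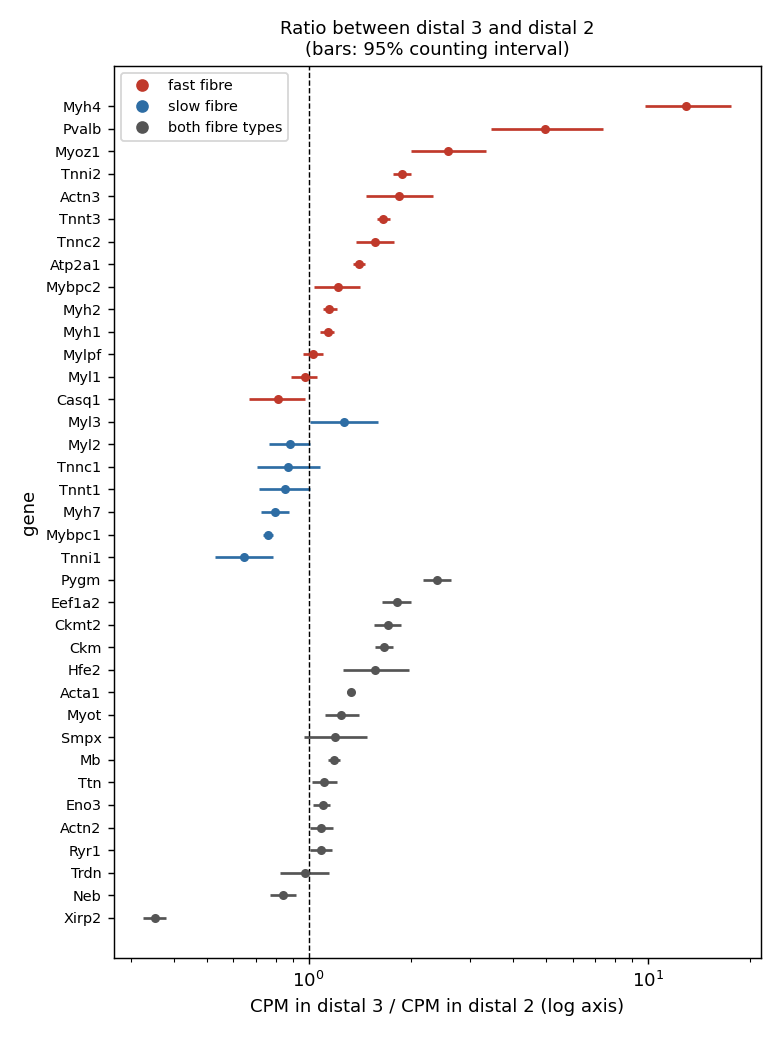
Ratio of CPM in distal 3 to CPM in distal 2 (x axis, log scale) for each of the 37 genes, by fibre class, with 95% counting intervals. Most fast genes lie right of 1 and most slow genes left of it, with Myh4 at 13.0 and Xirp2 at 0.352.

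Distal metastases were compared with primary tumours to ask how the spread at the far site differs from the tumour of origin. No muscle gene passed the test: of the 24 members tested, 0 reached an adjusted p below 0.05 in edgeR's quasi-likelihood test, in a comparison in which 0 of 18204 genes (0%) were called higher and 16 (0.0879%) lower. A positive log2 fold change was found for 23 of the 24, against 48% of all genes tested, and the median was 3.99, against -0.03 over all genes tested. An unadjusted p below 0.05 with a higher level was found for 17 of 24, against 3.89% of all genes tested. The 3 distal libraries all lay above the 3 primary ones for 3 of 24 members (Acta1, Tnnt3 and Hfe2), against 8.4% of all genes tested. A member that passes the filter only through its distal counts has to be higher there, so these counts are a description. The adjusted p ranged from 0.105 (Hfe2) to 0.783 (Tnni1). The 13 members that did not pass the filter were 8 fast (Tnnc2, Myh1, Myh2, Myh4, Myl1, Atp2a1, Pvalb and Myoz1), 3 slow (Myh7, Myl2 and Myl3) and 2 shared genes (Xirp2 and Trdn), since the filter asks for enough counts in 3 libraries.

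Among the tested members named here, the estimates were large for fast genes and for shared genes other than Eno3, and small for several slow ones. The slow genes Myh7, Myl2 and Myl3 did not pass the filter, so this is no contrast between the fibre classes. In the fit without distal 1, which they entered through distal 2 and 3, their log2 fold changes were 10.77, 7.65 and 8.33. Against primary tumours, Tnnt3 averaged 72.2 ± 67.8 CPM in distal metastases and 0.131 ± 0.0273 CPM in primary tumours (SD, n = 3 each), which gave a log2 fold change of 9.08 with an SE of 1.88 and an edgeR adjusted p of 0.117. Acta1 averaged 239.1 ± 210.3 CPM in distal metastases and 1.23 ± 1.11 CPM in primary tumours, for a log2 fold change of 7.63 with an SE of 1.61 (edgeR adjusted p = 0.12). The SDs are almost as large as the distal means, with distal 1 far below distal 2 and 3. The log2 fold change was 5.44 for Tnni2 (SE 1.61, adjusted p = 0.179), 3.96 for Mylpf (SE 0.93, adjusted p = 0.129) and 3.34 for Mybpc2 (SE 1.01, adjusted p = 0.189). For Ckm it was 7.18 (SE 1.94, adjusted p = 0.161) and for Mb 4.02 (SE 1.86, adjusted p = 0.303). Among the slow genes it was 3.13 for Tnnt1 (SE 0.92, adjusted p = 0.178), 1.03 for Mybpc1 (SE 0.70, adjusted p = 0.41), 0.43 for Tnnc1 (SE 0.81, adjusted p = 0.748) and -0.26 for Tnni1 (SE 0.56, adjusted p = 0.783). Eno3 stood at 1.11 (SE 0.55, adjusted p = 0.32). Genes without counts in primary tumours have no fold change but a bound against 3 counts over the group: Tnnc2 was at least 259.7-fold, Trdn at least 167.4-fold and Pvalb at least 46.4-fold higher over the 3 distal libraries together.

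Leaving out distal 1 changed the calls. With distal 1 left out, the filter asks for 2 libraries, 19049 genes were tested and all 37 members among them. Then 19 members were called higher in distal metastases than in primary tumours, out of 32 genes called higher (0.168%) and 3 lower. They were 7 fast genes (Tnnt3, Myh1, Myh2, Myl1, Mylpf, Atp2a1 and Casq1), 4 slow genes (Myh7, Myl2, Myl3 and Tnnt1) and 8 shared genes (Acta1, Actn2, Hfe2, Pygm, Ryr1, Trdn, Ttn and Xirp2). Of the 19, 9 were not tested with all 9 libraries (Myh1, Myh2, Myl1, Atp2a1, Myh7, Myl2, Myl3, Trdn and Xirp2) and entered this fit through their counts in distal 2 and 3, so they had to be higher there. The library left out is also the distal one in which the members were low, so the count describes distal 2 and 3 and not the 3 distal metastases. In that fit the log2 fold change was 9.67 for Tnnt3 (SE 0.39, adjusted p = 0.000567 in edgeR), 8.22 for Acta1 (SE 0.73, adjusted p = 0.016) and 4.51 for Mylpf (SE 0.39, adjusted p = 0.0144). Of the other 13 higher genes, 9 were on a list of 45 further muscle genes. The remaining 4 were Ankrd2, Fabp3, Fbxo40 and Ankrd23, and the 3 lower genes were Klf4, Vipr1 and Ceacam1, all named after their values were seen. With primary 1 left out instead, 13 members were called higher, 4 of them (Myh1, Atp2a1, Myh7 and Xirp2) admitted by the same lower filter, in a fit that called 13.2% of all genes tested higher and 14.1% lower. DESeq2 on all 9 libraries called 16 members higher and 0 lower, against 1.13% and 6.81% of all genes tested, and limma-voom called 0.

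The nearby site was then set against the primary tumours. The muscle genes showed no shared direction: of the 24 tested, 12 had a positive log2 fold change, against 47.2% of all genes tested, and the median was -0.02, against -0.05. In edgeR's test 0 members were called, with 0 of 18204 genes (0%) called higher and 9 (0.0494%) lower. At an unadjusted p below 0.05, 0 members were higher, against 3.86% of all genes tested, and 3 of 24 were lower, against 14.3% of all genes tested: Tnni1, Eef1a2 and Mb. The proximal libraries all lay below the primary ones for 3 of 24 members, against 10.7% of all genes tested, so neither count stands above the background. The 3 proximal libraries all lay above the 3 primary ones for 2 of 24 members (Mybpc1 and Eno3), against 8.68% of all genes tested. Tnni1 averaged 1.49 ± 0.656 CPM in proximal metastases and 6.07 ± 3.15 CPM in primary tumours (SD, n = 3 each), which gave a log2 fold change of -2.02 with an SE of 0.58 and an edgeR adjusted p of 0.172, and the groups did not overlap. Eef1a2 averaged 0.0423 ± 0.0296 CPM in proximal metastases and 1.15 ± 0.543 CPM in primary tumours, for a log2 fold change of -4.65 with an SE of 1.40 (edgeR adjusted p = 0.182), again without overlap. For Mb, the ratio of proximal to primary counts was 0.00435 (counting interval 0.000524 to 0.0158), from 2 and 359 counts. DESeq2 called the same 3 genes lower, and 0 higher, in a test that called 7.42% of all genes tested lower and 0.747% higher, and limma-voom called 0 members. The 2 genes of high level were higher on average in proximal metastases, with log2 fold changes of 1.32 for Mybpc1 (SE 0.71, adjusted p = 0.322) and 1.24 for Eno3 (SE 0.55, adjusted p = 0.279). Without primary 1, Mybpc1 and Eno3 were called higher and Eef1a2 lower, in a fit that called 13.8% of all genes tested higher and 14.9% lower.

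Among the other members of high mean level, the proximal estimates against primary tumours lay near 0 relative to their errors. The log2 fold change was 0.37 for Tnnt3 (SE 1.89, adjusted p = 0.906), -0.97 for Tnni2 (SE 1.46, adjusted p = 0.676), 0.19 for Mylpf (SE 0.84, adjusted p = 0.889) and -0.26 for Mybpc2 (SE 0.96, adjusted p = 0.869), all from edgeR. It was -1.25 for Tnnc1 (SE 0.83, adjusted p = 0.377), 0.03 for Tnnt1 (SE 0.88, adjusted p = 0.985), -0.76 for Acta1 (SE 1.37, adjusted p = 0.727) and -1.65 for Ckm (SE 1.97, adjusted p = 0.597).

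The 2 metastatic sites were compared directly to ask where they differ. Of the 24 tested members, 22 had a positive log2 fold change for distal against proximal metastases, against 47.2% of all genes tested, with a median of 3.96, against -0.01. An unadjusted p below 0.05 with a higher level was found for 20 of 24, against 1.79% of all genes tested, and with a lower level for 0 of 24, against 0.269%. The groups did not overlap, with distal higher, for 10 of 24, against 4.03%. As in the comparison with primary tumours, a member that passes the filter only through its distal counts has to be higher there. These counts are thus a description too. No member was called, and no gene at all (0%), with an adjusted p of 1 for every member in edgeR's test. DESeq2 called 15 members higher and 0 lower, against 0.445% and 0.022% of all genes tested, and limma-voom called 0. This comparison uses the same distal libraries as that against primary tumours, so the 2 sets of values are not independent.

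Tnnt3 averaged 72.2 ± 67.8 CPM in distal and 0.170 ± 0.0438 CPM in proximal metastases (SD, n = 3 each), which gave a log2 fold change of 8.71 with an SE of 1.81 and an edgeR adjusted p of 1. The log2 fold change was 8.39 for Acta1 (SE 1.66), 8.83 for Ckm (SE 2.13), 6.41 for Tnni2 (SE 1.69), 3.76 for Mylpf (SE 0.92) and 3.60 for Mybpc2 (SE 1.02). Among the slow genes it was 3.11 for Tnnt1 (SE 0.91), 1.76 for Tnni1 (SE 0.58), 1.69 for Tnnc1 (SE 0.83) and -0.29 for Mybpc1 (SE 0.69). Eno3 had -0.13 (SE 0.54). Mb had 7523 counts in the distal and 2 in the proximal libraries, a ratio of 3975.3 (counting interval 1100.1 to 32831.2). Myh2 had no counts in the proximal libraries or in distal 1, and 3955 and 3258 counts in distal 2 and 3. Over the distal libraries together it was at least 2541-fold higher than in the proximal ones. Without distal 1, 20 members were called higher, out of 38 genes called higher (0.199%). The 7 fast and 4 slow genes were those called against primary tumours, and the 9 shared genes included Ckm and Eef1a2 but not Pygm. Of the 20, the same 9 as against primary tumours entered only with the lower filter, through their counts in distal 2 and 3, so this count too is a description of those libraries.

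Other muscle genes followed the members. Of a list of 45 further genes of the sarcomere, triad and muscle metabolism, distal 2 and 3 were the 2 highest libraries for 37. The same held for 2.31% of all genes tested, a set that leaves out some of the 45. The list summed to 68.7, 417.9 and 467.1 CPM in distal 1, 2 and 3, against 66.3 to 77.0 CPM in the proximal and 82.9 to 126.4 CPM in the primary libraries. Tcap, the titin cap, was at 0.0749, 42.9 and 52.3 CPM in distal 1, 2 and 3 and at most 0.312 CPM elsewhere. Nrap, an actin-binding anchor of myofibrils, was at 0.125, 40.6 and 41.2 CPM in distal 1, 2 and 3 but also at 18.1 and 19.9 CPM in primary 2 and 3, the libraries in which Mb was at 7.45 and 5.56 CPM. Srl, sarcalumenin of the sarcoplasmic reticulum, was at 4.60, 22.1 and 21.4 CPM in distal 1, 2 and 3 and at most 6.05 CPM in the proximal and 5.71 CPM in the primary libraries. Fbxo32, a ubiquitin ligase subunit of muscle wasting that many tissues express, did not follow, at 27.6 to 35.7 CPM in the distal, 29.1 to 42.0 CPM in the proximal and 32.6 to 77.8 CPM in the primary libraries. Of the 45, 25 were tested, and 24 of these had a positive log2 fold change for distal against primary, against 48% of all genes tested. The median was 1.70, against -0.03 over all genes tested. Of the 25, 0 were called, in a test that called 0% of all genes higher. The list was chosen with earlier results of these data known, so these counts are a description.

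Genes of muscle precursors were scarce, in a list of 18 genes from which those named here were picked after their values were seen. The satellite cell gene Pax7 and the myogenic factors Myf5, Myod1 and Myog had at most 0.19 CPM in any library. Myf6, the factor of mature fibres, was at 1.09 and 0.699 CPM in distal 2 and 3 and had no counts in the other 7. The embryonic and perinatal myosins Myh3 and Myh8 had at most 0.214 CPM. Desmin (Des), the intermediate filament of all muscle, was at 7.29, 122.6 and 93.2 CPM in distal 1, 2 and 3, at 3.25 to 12.9 CPM in the proximal and at 8.23 to 40.7 CPM in the primary libraries.

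The diaphragm and lung labels were checked against markers. The surfactant genes Sftpc, Sftpb, Sftpa1 and Sftpd had at most 0.0749 CPM in any distal library. The 10 lung genes summed to 3.10 to 6.66 CPM in the distal, 2.89 to 10.5 CPM in the proximal and 6.06 to 26.9 CPM in the primary libraries. Most of the distal sums came from Napsa, at 1.27, 2.71 and 5.06 CPM in distal 1, 2 and 3, and Ager, at 1.60, 1.57 and 1.37 CPM. Sftpd reached 14.9 and 9.73 CPM in primary 2 and 3, and Scgb1a1 reached 9.63 CPM in primary 3. In distal 1 the 35 muscle genes without Mybpc1 and Eno3, at 20.1 CPM, and the 10 lung genes, at 3.10 CPM, both summed to less than in any primary tumour. Of the heart-specific genes, Myh6 and Nppa had at most 0.0678 CPM in any library. Some others of the list, named after their values were seen, were highest in distal 3. Actc1, cardiac actin, was at 0.4, 0.19 and 4.5 CPM in distal 1, 2 and 3 and at most 1.48 CPM elsewhere. Myl7, the atrial light chain, was at 0.475, 0.0238 and 1.53 CPM in distal 1, 2 and 3 and at most 0.367 CPM elsewhere, and the natriuretic peptide gene Nppb was at 0.125, 0.167 and 0.899 CPM in distal 1, 2 and 3 and at most 0.156 CPM elsewhere. Further genes of the list had their highest library elsewhere. Tnnt2 was highest in primary 2, at 13.6 CPM against 1.7 CPM in distal 3, and Casq2 in proximal 2, at 12.7 CPM. Tnni3 (2.33 CPM) and Pln (0.402 CPM) were highest in primary 1 and Myl4 (1.95 CPM) in primary 2. The 12 cardiac genes summed to 12.7 to 21.4 CPM in the distal, 10.9 to 17.2 CPM in the proximal and 8.58 to 20 CPM in the primary libraries.

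Markers of other cells also differed between the distal libraries. The 7 erythroid genes summed to 442.8, 1695.5 and 5843.1 CPM in distal 1, 2 and 3, against 210.1 to 304.0 CPM in the proximal and 217.2 to 535.5 CPM in the primary libraries. Distal 2 and 3 were the 2 highest for 6 of the 7, against 2.31% of all genes tested. The beta-globin gene Hbb-bs was at 277.9, 1207.3 and 4076.1 CPM in distal 1, 2 and 3. The 9 adipocyte genes summed to 41.3, 44.1 and 405.3 CPM in distal 1, 2 and 3, against 141.7 to 514.6 CPM in the proximal and 58.1 to 380.6 CPM in the primary libraries, so their high distal library was distal 3 alone. Smooth muscle genes, 10 in number, summed to 220.0 to 374.7 CPM in the distal, 129.1 to 264.4 CPM in the proximal and 141.6 to 470.0 CPM in the primary libraries. The mesothelial list of 6 genes summed to 134.3 to 215.3 CPM in the distal, 76.2 to 266.6 CPM in the proximal and 129.8 to 199.8 CPM in the primary libraries. For the hepatocyte list of 13 genes the sums were 5865.8 to 7025.9, 5256.1 to 7585.2 and 1251.4 to 4084.2 CPM in distal, proximal and primary libraries, with Alb alone at 5823.5 to 6818.8 CPM in the distal ones. Cyp2e1 made up most of the sum in primary 2, at 2368.8 CPM, and stood at 598.2 CPM in primary 3, where Alb was at 648.8 CPM. For the 8 prostate epithelial genes the sums were 2286.4 to 2404.6 CPM in the distal, 1742.4 to 2589.9 CPM in the proximal and 2564.2 to 10606.2 CPM in the primary libraries. In edgeR's test of distal against primary, 0 genes of these lists were called. At an unadjusted p below 0.05, 5 of the 7 erythroid genes were higher (lowest adjusted p 0.161) and 5 of the 11 hepatocyte genes tested were higher (lowest adjusted p 0.129), against 3.89% of all genes tested. Of the 8 prostate epithelial genes, 6 were lower at that level, against 13.5% of all genes tested, with a lowest adjusted p of 0.0549, and 5 were lower without overlap of the groups, against 10.4%. These lists were also chosen with earlier results of these data known, and the part of these cells in the muscle result was not tested.

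**Figure D5:**
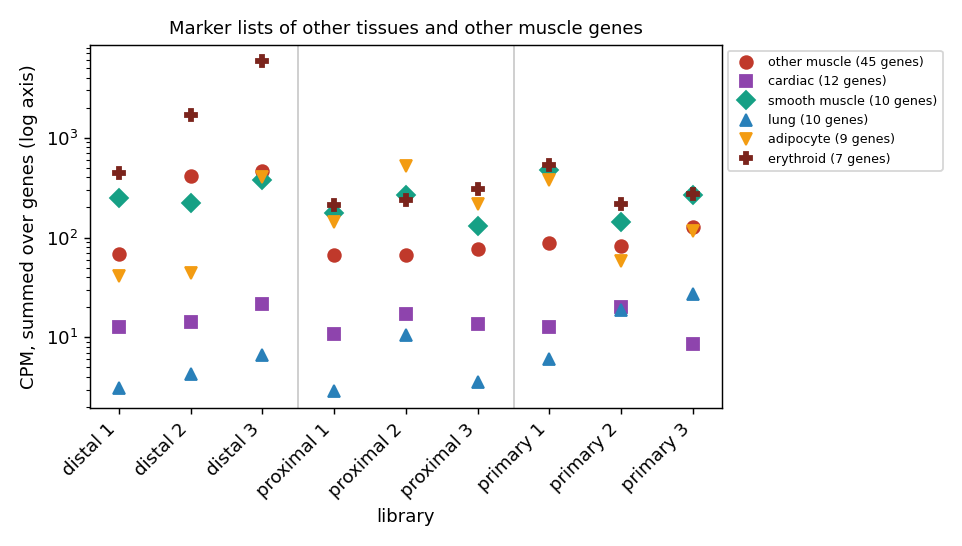
Summed CPM per library (log axis) of 45 further muscle genes and of marker lists for cardiac, smooth muscle, lung, adipocyte and erythroid cells. The further muscle genes reach 417.9 and 467.1 CPM in distal 2 and 3, the erythroid genes 5843.1 CPM in distal 3, and the lung genes at most 26.9 CPM.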

How the data were processed

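The deposited files hold raw counts per Ensembl gene, whole numbers, 1 file for each library. The submitters' processing notes list HTSeq 0.6.0, TopHat2 2.1.0 with Bowtie2 2.2.6.0, FastQC 0.11.4, and DESeq2 1.14.1 under R 3.2.3, on build GRCm38.p3. How strands were handled, which annotation was counted and how reads were filtered is not given in the sources used here, so reads of overlapping genes (21 members overlap a gene on the opposite strand) and near-identical myosin genes may be divided wrongly. Symbols, positions and exon lengths came from GENCODE M21 (GRCm38). No pair of libraries agreed within sampling noise (chi-square per gene of at least 25.4).

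Genes that passed filterByExpr (group-wise, at least 10 counts, total of at least 15) entered a test on all 9 libraries, without an animal term, with edgeR 4.0.16's robust quasi-likelihood F-test in R 4.3.3 with 6 residual degrees of freedom. Calls needed an adjusted p (Benjamini-Hochberg over the 18204 genes tested) below 0.05. The SE is the size of the log2 fold change over the root of F. The p-values treat libraries as independent and measure only the spread between them. CPM values were computed here from library totals times TMM factors (0.796 for primary 2, 0.994 to 1.05 for the others).

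Alternatives were DESeq2 1.42.0, limma 3.58.1 (voom with a variance factor per group), median-ratio size factors, unscaled library totals, no filter, the 6 compared libraries alone and leaving out each library in turn. A fit without robust shrinkage was added after seeing the data. The edgeR, DESeq2 and limma-voom fits were run on simulated counts with changes placed in the distal libraries. The members and lists were chosen with earlier results of these data known. All 37 members are named. Fold changes and values in every library are given for called members and for the 4 tested members of each fibre class with the highest mean CPM. Of other lists, up to 4 genes by mean CPM are named, and any further gene is said to have been picked after its values were seen or marks the presence of a cell type.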

Additional observations from a re-analysis of the deposited data

How the results depend on the processing

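No paired analysis was possible because the labels tie no library to a mouse and the replicate numbers only name libraries. The count of members called was 0 in all 3 comparisons under median-ratio size factors, library totals alone, limma-voom, no filter, no robust shrinkage and the 6 compared libraries alone. With DESeq2 it was 16 for distal against primary, 3 for proximal against primary and 15 for distal against proximal. Leaving out 1 library gave 0 to 19, 0 to 3 and 0 to 20 in the same order; the counts above 0 came without distal 1 or primary 1, and the filter then admits genes seen in 2 libraries. The count of all genes called, for distal against primary, was 10 with library totals alone, 1444 with DESeq2, 38 with limma-voom, 0 with the 6 libraries alone and 0 to 5203 leaving out 1 library, against 16. For proximal against primary it was 15 with median-ratio size factors, 1486 with DESeq2, 37 with limma-voom, 26 with no filter, 22 with no robust shrinkage, 0 with the 6 libraries alone and 0 to 5447 leaving out 1 library, against 9. For distal against proximal it was 85 with DESeq2 and 0 to 38 leaving out 1 library, against 0. The cause of these changes was not tested. Of 541 alternatives for the fold changes of single genes, 502 kept direction and call, 30 kept direction and passed the threshold, and 9 reversed, all by leaving out 1 library. The log2 fold change of Tnni1 for distal against primary then ran from -0.68 to 0.17. For proximal against primary it ran from -0.65 to 0.21 for Mybpc2, -1.68 to 0.26 for Tnnc1, -0.21 to 0.53 for Tnnt1, -1.15 to 0.23 for Acta1 and -0.10 to 0.48 for Mylpf. Genes at 0 or a few counts outside distal 2 and 3 are limited by depth to the bounds given.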

Other observations

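Of the muscle acetylcholine receptor genes, picked for this paragraph after their values were seen, Chrng, Chrna1 and Chrnd had their highest library outside distal 2 and 3. Chrng, the fetal gamma subunit, was at 8.37, 1.31 and 1.30 CPM in distal 1, 2 and 3, at 6.00, 3.01 and 2.35 CPM in proximal 1, 2 and 3 and at 2.04, 0 and 0.441 CPM in primary 1, 2 and 3. Its highest library was thus the distal one in which the contractile genes were low. Chrna1, the alpha subunit, was at 3.22, 1.09 and 2.26 CPM in distal 1, 2 and 3, at 0.73 to 1.49 CPM in the proximal and at 0.039 to 0.912 CPM in the primary libraries. For distal against primary, its log2 fold change was 2.46 with an SE of 0.89 (edgeR adjusted p = 0.234), without overlap of the groups. Chrnd, the delta subunit, was at 3.2, 1.17 and 1.40 CPM in distal 1, 2 and 3 and reached 4.27 CPM in primary 3. Chrne, which replaces Chrng in adult fibres, was highest in distal 2 and 3, at 0.119 and 0.133 CPM from 5 and 4 counts, with at most 0.0522 CPM in any other library.

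Some further muscle genes, also picked after their values were seen, differed between distal 2 and distal 3 in the way Xirp2 did. Csrp3, a muscle LIM protein, was at 0.125, 7.07 and 1.43 CPM in distal 1, 2 and 3, and Xirp1, of the same Xin repeat family as Xirp2, was at 0.0499, 10.6 and 6.93 CPM. The ubiquitin ligase gene Trim63 went the other way, at 0.2, 2.59 and 7.83 CPM in distal 1, 2 and 3, against at most 0.22 CPM in the proximal and 0.312 CPM in the primary libraries.

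Some liver plasma protein genes, picked after their values were seen, were highest in distal 1, whereas Alb, at 6818.8, 5823.5 and 6408.2 CPM in distal 1, 2 and 3, was highest in proximal 1 at 7560.9 CPM. Fgb, a fibrinogen chain, was at 27.6, 5.14 and 1.17 CPM in distal 1, 2 and 3, against at most 0.122 CPM in the proximal and 0.624 CPM in the primary libraries. Apoa1, the main protein of high-density lipoprotein, was at 49.7, 7.66 and 1.90 CPM in distal 1, 2 and 3, but also at 20.5 CPM in proximal 2.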
